A study of Zea mays with 112 samples.

Results

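The loci described here are stretches of the maize genome at which many NAC transcription factors (TFs) had a binding peak in vitro. Peak summits of all TFs of the series were sorted along the B73 v4 genome and neighbours within 100 bp were chained into loci, which gave 3256404 loci from 9750022 peaks. The 5790 loci kept were chosen by their number of NAC peak lists, 8 or more of 14, and by a limit of under 30 TFs in all. They made up 0.178% of all loci.

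The peaks came from ampDAP-seq, in which a TF made in wheat germ extract as a Halo-tagged fusion is bound to beads and mixed with a PCR-amplified library of fragmented genomic DNA, and the DNA it retains is sequenced. All lists share the same source of DNA, leaf of the inbred B73 at 14 days (DAG in the labels), and each TF has 1 list, called against a library of the tag alone. The 14 NAC lists are 13 titled NACTF with a number and NRP1, whose list, like that of NACTF2, comes from a file marked as merged. A peak is therefore binding to DNA without chromatin, with 1 list per TF and no replicate of any TF.

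NAC proteins are plant-specific TFs named after NAM, ATAF and CUC. They bind DNA as dimers through a conserved NAC domain, often at sites with a CGTG or CACG core. Members of the family act in organ boundaries, secondary walls, senescence and stress responses, and in cereal endosperm NAC factors activate storage protein and starch genes. NRP1 is a no-apical-meristem-related protein whose gene is imprinted in maize endosperm.

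No locus held peaks of all 14 NAC lists. Of the 5790 loci, 2612 held 8 NAC lists, 1592 held 9, 1107 held 10, 322 held 11, 156 held 12 and 1 held 13. Just outside the limit, 4384 loci under 30 TFs held 7 NAC lists, and their NAC summits spanned a median of 177 bp, against 214 bp with 8 lists. At the other limit, 10 loci of 8 or more NAC lists had 29 TFs and 15 had 30, and 178 loci in all were left out for having 30 or more. The typical kept locus was mostly a NAC locus: the median was 12 TFs, of which 3 were not NAC. At 1036 loci (17.9%) only NAC lists were present, at 3001 (51.8%) there were 1 to 5 other TFs, and at 1753 (30.3%) there were 6 or more.

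The NAC lists did not join evenly. NRP1 had a peak at 97.0% of the loci, NACTF2 at 91.8%, NACTF109 at 90.9%, NACTF29 at 89.4% and NACTF126 at 86.3%. NACTF49 (80.6%), NACTF65 (80.5%), NACTF5 (78.9%), NACTF11 (74.5%) and NACTF6 (61.4%) followed. These 10 lists carried most of the loci, and the other 4 joined less often. NACTF77 had a peak at 31.9%, NACTF61 at 23.2%, NACTF67 at 6.49% and NACTF134 at 21 loci (0.363%). List length followed this order in part: NRP1 had the most peaks of the NAC lists (170007) and NACTF67 the fewest (11215). The order was not exact, as NACTF134 had 34761 peaks and NACTF6 only 27643. Of the NACTF6 peaks 15.8% lay in these loci, the highest share of any NAC list. The shares describe the choice of loci and were not tested.

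The 10 frequent lists are described below as 2 sets. A first set holds NRP1, NACTF11, NACTF65, NACTF29, NACTF2 and NACTF126, and a second holds NACTF109, NACTF49, NACTF5 and NACTF6. All 6 lists of the first set joined at 2723 loci (47.03%) and all 4 of the second at 3265 (56.4%), while 318 loci (5.49%) had none of the second set. NACTF77 and NACTF61 joined together at 1284 loci (22.2%). Of 363 combinations of NAC lists, the most common, both sets complete with no other NAC list, was present at 767 loci. The sets were drawn up after their summit distances were seen, and over all 5790 loci distances alone did not separate them. NACTF49 lay within 20 bp of the NRP1 summit in 44.5% of cases, more often than NACTF65 (38.6%) or NACTF126 (35.01%) of the first set. In the loci in no recurring arrangement (below) these shares were 18.7%, 56.2% and 47.4%.

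**Figure D1:**
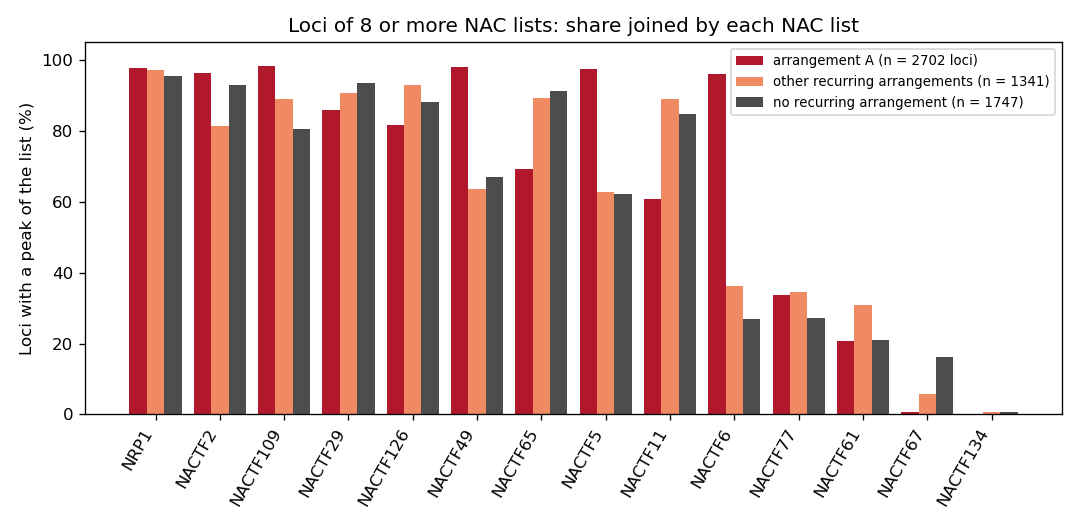
Share of loci with a peak of each NAC list (y axis, percent of loci), for the 2702 loci of arrangement A, the 1341 loci of other recurring arrangements and the 1747 loci of none. NACTF6 joined 96.2% of the loci of arrangement A and 26.96% of those in no recurring arrangement, whereas NRP1 was above 95% in all 3 classes.

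Within a locus some pairs of lists stood on or next to the same base. Where 2 lists had 1 peak each, the median distance was 0 bp for NRP1 and NACTF11 (3001 loci), 0 bp for NACTF77 and NACTF61 (491 loci) and 1 bp for NACTF2 and NACTF29 (2793 loci), the smallest of 70 pairs. In the loci in no recurring arrangement the medians of these pairs were larger, at 3, 16.5 and 9 bp. Other pairs of the first set stood further apart, with medians of 42 bp for NRP1 and NACTF65, 46 bp for NRP1 and NACTF126 and 68 bp for NACTF2 and NACTF65, and in the loci in no recurring arrangement these were 4, 11 and 23 bp. The largest medians all involved the NACTF77 and NACTF61 pair, with 124 bp to NACTF2 and 123 bp to NACTF29 for NACTF61, and 121 bp to NRP1 for either list. In no recurring arrangement NACTF61 stood at 65 bp to NACTF2, 77 bp to NACTF29 and 79 bp to NRP1, and NACTF77 at 59 bp to NRP1. NACTF29, NACTF2 and NACTF11 lay closest to the median NAC summit of the locus, at medians of 10, 11 and 11 bp. NACTF61 lay at a median of 100 bp from it and NACTF134 at 173 bp.

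The summits of the first set also had preferred distances from NRP1, held by a part of the summits. In the 1747 loci in no recurring arrangement, the nearest NACTF11 summit lay on the NRP1 base in 38.6% of cases and the nearest NACTF65 summit in 42.2%. NACTF29 lay 2 bp away in 39.9%, NACTF2 3 bp away in 25% and NACTF126 4 bp away in 33.7%. Each was the commonest distance of its list, and the next commonest held under 3% of the summits. Where NACTF126 was exactly 4 bp away, NACTF11 was on the NRP1 base in 76.5% of 527 cases and NACTF65 in 80.5% of 573. NACTF29 was 2 bp toward NACTF126 in 78.1% of 566 cases and NACTF2 3 bp toward it in 54.4% of 542. The commonest order from NRP1 to NACTF126 was thus NRP1 with NACTF11 and NACTF65, then NACTF29, then NACTF2, then NACTF126. Loci of 4 to 7 NAC lists had 77.9%, 82.8%, 78.6% and 52.8% at those bases. In arrangement A, described below, NACTF126 was 4 bp from NRP1 in only 11.6% of cases, and where it was, the shares were 45.1%, 27.9%, 53.8% and 27.2%. The peaks carry no strand, and NACTF126 lay on the side of the higher coordinate about as often as on the lower, at 727 and 718 summits over all 5790 loci.

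Beyond this register, most of the loci repeated each other. Loci were grouped where they shared at least 8 base-exact distances over 30 bp between summits of the same 2 NAC lists, or of 1 list. These also had to make up at least 25% of the distances of the locus with fewer. By this measure 4043 of the 5790 loci (69.8%) belonged to 1 of 116 recurring arrangements, and 1747 (30.2%) to none. One arrangement, called A, held 2702 loci (46.7%). Arrangement B held 385 and arrangement C 278, and the next in size held 44. The share of loci in a recurring arrangement was 57.01% with 8 NAC lists, 72.6% with 9, 85.5% with 10, 93.2% with 11 and 97.4% with 12, against 34.6% of the 4384 loci with 7. The loci with 7 were grouped only among themselves and could not join A, B or C, so their share is not on the same footing. A locus with more lists also has more distances to share, so this trend is a description. Grouping with 3 other limits put 3654 to 3888 loci in recurring arrangements. With 12 shared distances and 25%, or 8 and 40%, the 3 largest groups still lay wholly within A, B and C, with 2468 to 2571, 294 to 369 and 262 to 278 loci. With 5 shared distances and 40% they merged: the largest group of 3343 loci held 92.3% of A, 97.1% of B and 100% of C, and the next held 62. The separation of A, B and C below therefore depends on the limit.

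In arrangement A the main NRP1 summit was present at 87.9% of the loci once these were aligned on their NAC summits in either direction. NACTF2 had a summit 11 bp to one side at 74.9% of the loci, NACTF29 10 bp to that side at 74.6% and NACTF49 4 bp at 70.4%. On the other side were NACTF5 at 21 bp (56.0%), NACTF6 at 25 bp (80.1%) and NACTF109 at 27 bp (54.8%). Positions were counted within 2 bp, and at each of these 97% or more of the summits so counted fell on the one most common base. Many summits lay off the common positions: a locus of arrangement A had a median of 53.8% of its NAC summits at them. This was 70% in arrangement B and 87.5% in arrangement C. Arrangement A thus did not follow the order of the first set given above: NACTF2 and NACTF29 lay 1 bp apart but 10 or 11 bp from NRP1, and NACTF126 most often 83 bp away. The orientation was balanced, with 50.6% of the loci in one direction and 49.4% in the other.

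Some lists had several summits in a locus of arrangement A at fixed spacings. NRP1 had a further summit 201 bp from the main one at 21.5% of the loci. In the whole genome 572 pairs of neighbouring NRP1 summits were 201 bp apart, of which 449 lay in arrangement A, while 45 pairs were 200 bp apart and 36 were 202 bp apart. For NACTF29 the commonest spacing of neighbouring summits in arrangement A was 71 bp (368 of 846 pairs), for NACTF6 192 bp (199 of 796) and for NACTF65 190 bp (147 of 384). In the loci in no recurring arrangement no NRP1 spacing was found more than 5 times among 315. Spacings within a list were among the distances used for grouping, so these contrasts follow in part from the grouping.

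Arrangements B and C differed in which lists took part. In both, NACTF11 and NACTF65 had a summit on the NRP1 base at most loci (58.2% and 76.6% of B, 89.6% and 81.7% of C) and NACTF29 had one 2 bp away (70.4% and 94.96%). NACTF126 was 4 bp away at 58.4% of the loci of B but at 7.55% of those of C. NACTF2 was 3 bp away at 52.5% of C, whereas in B it was most often over 100 bp away (25.7%) or 10 bp away (16.1%). In arrangement B NACTF5 lay 9 bp from NRP1 (74.3% of 385 loci) and NACTF6 13 bp (63.6%), and NACTF109 and NACTF49 lay 66 and 68 bp away. Arrangement C held NACTF109 21 bp from NRP1 at 90.3% of its 278 loci, NACTF126 at 46 bp (92.1%), and NACTF77 and NACTF61 both at 121 bp (84.2% and 73.02%). NACTF61 had a peak at 98.9% of the loci of arrangement C and at 0.26% of those of B, whereas NACTF5 had one at 0.36% and 96.9%. These differences are part of what separates the groups and were not tested. All 3 arrangements were found on all 10 chromosomes.

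**Figure D2:**
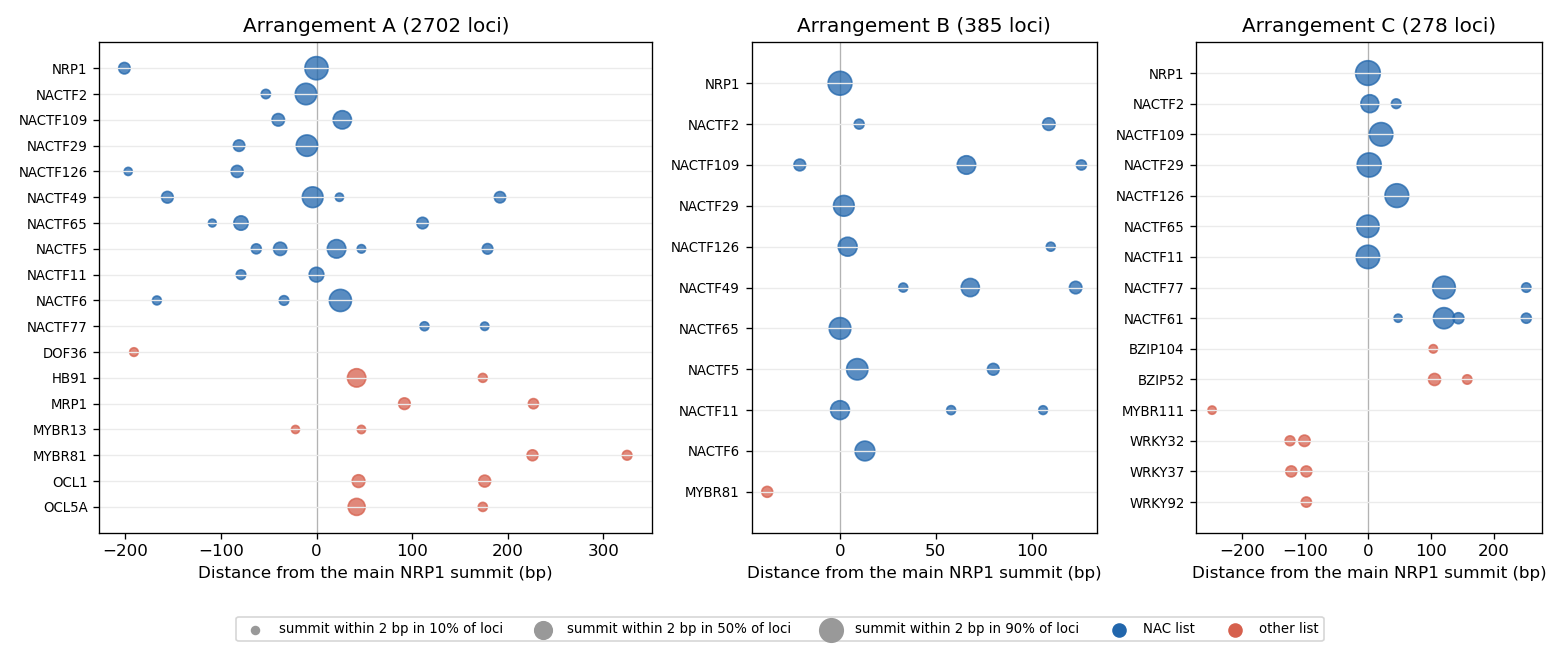
Positions of peak summits in arrangements A, B and C, in bp from the main NRP1 summit (x axis), for NAC lists (blue) and other lists (red). Each disc is a position with a summit within 2 bp at 10% or more of the loci, and its area grows with that share. In A, HB91 and OCL5A stood 42 bp from NRP1, and in C, NACTF77 and NACTF61 stood at 121 bp.

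The peaks that did not enter the grouping repeated as well. HB91 is a homeobox factor, and OCL5A and OCL1 belong to the outer cell layer genes, homeodomain-leucine zipper factors known from the epidermis and the outer cell layers of the kernel. In arrangement A HB91 and OCL5A had summits 42 bp from the main NRP1 summit at 55.2% and 47.2% of the loci, and OCL1 44 bp from it at 26.5%. MRP1, the MYB-related regulator of the basal endosperm transfer layer, had one 92 bp from NRP1 at 22.1%. Of the loci of arrangement A with both NRP1 and HB91, 71.8% (1433 of 1995) held the 42 bp distance, against 4.18% (13 of 311) in no recurring arrangement and 11.8% (465 of 3947) with 4 to 7 NAC lists.

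The repetition also went on outside the chained loci, where no rule had placed a summit. NACTF77 and NACTF61 had summits 1356 bp from the main NRP1 summit, on the side of NACTF6, at 51.5% and 48.9% of the loci of arrangement A. WRKY92 had one at 1115 bp (36.6%), BZIP114 at 1228 bp (33.8%) and, on the opposite side, MYB83 at 2338 bp (32.6%). Among the other 2974 loci of 8 or more NAC lists that held NRP1, 13 (0.437%) had NACTF77 at that distance from an NRP1 summit in either direction, and 31 (1.04%) had WRKY92 at its distance. Averaged over 5 bp windows from 500 to 3000 bp around arrangement A, a NACTF77 summit was present at 0.121% of the loci. Arrangement C had its own distant positions, among them NACTF77 2019 bp away at 68.3% of its loci and NACTF5 751 bp away at 40.3%.

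Arrangement A was also found where fewer lists were called. Of 4 of its distances from NRP1 (NACTF2 at 11, NACTF29 at 10, NACTF49 at 4 and NACTF6 at 25 bp), 3 or more were present at 1930 of its 2702 loci (71.4%) and at 324 of the 4384 loci of 7 NAC lists (7.39%). In the whole genome 2411 loci held them. In no recurring arrangement there were 9 such loci. The sequence and the gene or repeat annotation of these positions were not analysed here, as no genome of the files' build was used.

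Peak strength was not used to choose the loci. It was compared as the percentile of a peak's signal within its own list, since the signal values of different libraries are not on a common scale. The second set of lists had its strongest peaks in arrangement A. NACTF109 had a median signal of 242 there (2658 loci), against 46.5 at loci in no recurring arrangement, which correspond to median percentiles of 98.3 and 71.5 of its list. NACTF49 had 307 and 40.3, NACTF5 had 220 and 41.5, and NACTF6 had 74 and 31. The medians of all 4 lists were thus 2.4 to 7.6 times as high in arrangement A, and their interquartile ranges did not overlap. The best peak of a list per locus was used, and NACTF5 and NACTF49 had more peaks to choose from in arrangement A. NACTF5 had 2956 pairs of neighbouring summits over 2637 loci there, against 170 over 1087 in no recurring arrangement. For NACTF49 these were 2955 over 2647 and 246 over 1169. The effect on the medians was not tested.

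The first set did not follow. NRP1 had a median signal of 94.5 in arrangement A and 108 in no recurring arrangement, with quartiles of 69.3 to 124 and 71 to 169. NACTF65 had 41.9 and 91.0, and NACTF11 had 32 and 49. In arrangement C a different pair of lists stood out, with NACTF61 at a median percentile of 94.4 and NACTF126 at 92.6. In arrangement B no list had a median percentile above 77.9.

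The concentration was plain at the top of the lists. Of the strongest 1% of NACTF6 peaks, 247 of 276 (89.5%) lay in arrangement A, against 12.3% of all its peaks. The shares were 80.6% of 1075 peaks for NACTF5, 78.2% of 1286 for NACTF109 and 68.2% of 1235 for NACTF49, against 4.34% to 5.20% of all their peaks. For NRP1 the share of the strongest 1% was 3.48%, for NACTF65 2.47% and for NACTF11 0.128%, against 1.93%, 2.42% and 2.31% of all their peaks. Lists of both sets therefore shared these loci while only the second set had most of its strongest peaks there.

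**Figure D3:**
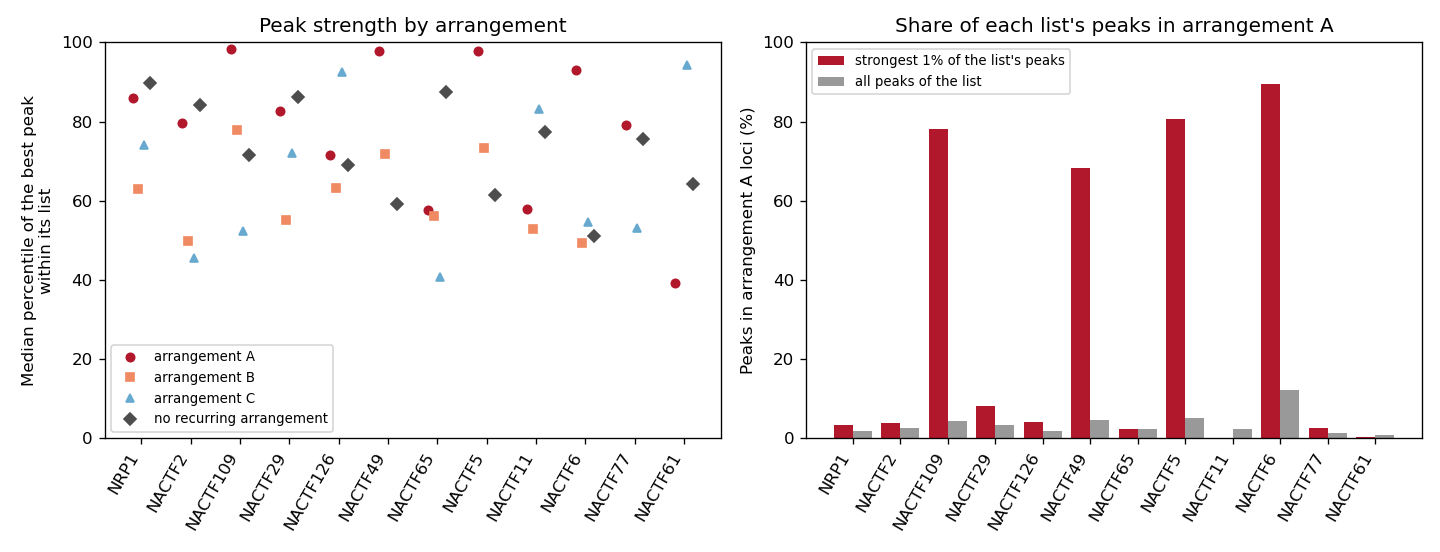
Left, median within-list percentile of the best peak per locus for 12 NAC lists in arrangements A, B and C and in no recurring arrangement. Right, percent of the strongest 1% of each list's peaks (red) and of all its peaks (grey) that lay in arrangement A. In arrangement A, NACTF109, NACTF49, NACTF5 and NACTF6 stood at 93.1 or above on the left, and on the right at 68.2% to 89.5% of their strongest 1%.

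Strength was then compared at loci counted by the other lists alone, so a list's own peak did not add to the number. That list's summits still took part in the chaining, and only its best peak per locus was used. Loci with more NAC lists spanned more bp (medians of 177 with 7 and 214 with 8), which leaves room for more peaks. What this adds to a best peak was not tested. For each NAC list, loci with 8 or more of the other 13 lists were compared with loci with 4 to 7 of them, all under 30 TFs. The median percentile was higher at 8 or more for 12 of 14 lists, by 13.2 ± 11.2 percentile points (mean and SD, n = 14 lists; exact two-sided sign-flip permutation test, p = 0.00146, the smallest possible being 0.000122). The gain was 28.1 points for NACTF6, 26.8 for NACTF49, 24.5 for NACTF109 and 22.4 for NACTF5. It was 8.41 for NRP1, 9.92 for NACTF2, 14.3 for NACTF29 and 1.86 for NACTF65, and it was -0.69 for NACTF11 and -8.85 for NACTF61. NACTF77 gained 18.6 and NACTF126 5.08, and NACTF67 (192 loci) and NACTF134 (8 loci) gained 13.4 and 21.5.

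This mean rested on different lists with and without arrangement A. Without its loci the mean was 9.18 points (12 of 14 lists higher, p = 0.00195 in the same exact test), but NACTF6 was at -8.35, NACTF5 at 0 and NACTF49 at 1.53, while NACTF65 rose to 14.2 and NACTF61 to 28.5. Without the loci grouped in any recurring arrangement it was 8.81 points (10 of 14, exact p = 0.00488), with NACTF65 at 21.1 and NACTF61 at -1.92. Only loci of 8 or more NAC lists had been grouped, so repeated loci with fewer lists stayed in the comparison. Among loci of 4 to 7 NAC lists, 472 held 3 or more of the 4 arrangement A distances given above. What this does to the 2 means was not tested. Among the 8 lists that share the first digits of a run identifier in their file names it was 12.7 points (exact p = 0.0469). With the peaks below a −log10 q of 10 left out, the mean turned to -2.17 points (exact p = 0.465). The lists are single libraries of different TFs, so each p measures the spread between lists. The test treats lists as independent, but they were scored on overlapping loci. Within the second set, Spearman's rho of strength over loci was 0.841 to 0.925, which no p here allows for.

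Where 2 lists were both present, their strengths were compared over loci. Spearman's rho over loci was 0.925 for NACTF49 and NACTF5 (4247 loci), 0.893 for NACTF109 and NACTF5 (4410) and 0.888 for NACTF109 and NACTF49 (4505), the highest of the pairs. It was lowest for NACTF109 and NACTF61 (-0.396, 974 loci), NACTF65 and NACTF5 (-0.249, 3513) and NACTF49 and NACTF65 (-0.249, 3609). In no recurring arrangement the same 6 pairs had 0.625, 0.545, 0.528, -0.022, 0.006 and -0.033, so part of either extreme went with the arrangements. There the median over the pairs within the second set, 0.536, was near that within the first, 0.546, against 0.877 and 0.519 over all 5790 loci. The highest values there, chosen after they were seen, were 0.768 for NACTF29 and NACTF11 and 0.761 for NACTF77 and NACTF61. The 22 pairs of lists that share the first digits of a run identifier in their file names had a median rho of 0.191. The 28 pairs with different digits had 0.192, and what the digits mark is not given in the labels. All rho values are descriptions over loci of the same genome and carry no p.

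The locus with the most NAC lists was chr8:156843996-156844833, with 13 of 14, 27 TFs and NAC summits over 519 bp. Its signal was 647 for NACTF29, 416.8 for NACTF2, 334.8 for NRP1, 328.3 for NACTF65, 238.1 for NACTF77 and 207.4 for NACTF11. It was 43.4 for NACTF61, 33 for NACTF109, 32.6 for NACTF126, 25 for NACTF5 and for NACTF6, 22 for NACTF49 and 19.4 for NACTF67. The first set except NACTF126 was above the 97 percentile of its lists here and the second set at or below the 53.2 percentile, although the locus was grouped with arrangement A. Within 1 bp of the NRP1 summit lay summits of NACTF65, NACTF67, GBF1, BZIP52, BZIP54, BZIP75, BZIP104 and BZIP111, the last 6 from basic leucine zipper factors.

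The narrowest locus of 12 or more NAC lists was chr5:165515238-165515594, where 12 NAC lists fell within 128 bp with 1 other TF, CPP10. NRP1, NACTF65 and NACTF11 shared 1 base there, NACTF29 lay 2 bp, NACTF2 3 bp and NACTF126 4 bp from it, which is the commonest order given above. The signal was 414.8 for NACTF65, 318 for NRP1, 210 for NACTF29, 180.3 for NACTF2 and 118 for NACTF11. It was 84 for NACTF109, 73 for NACTF5, 61.7 for NACTF67, 60.3 for NACTF49, 53 for NACTF6, 51 for NACTF134 and 43 for NACTF126. It belonged to no recurring arrangement, and 11 of its 12 NAC lists reached a −log10 q of 10. The next 3 by rank, chr6:52794037-52794563, chr5:121134758-121135367 and chr1:85683243-85683910, each had 12 NAC lists and 1 other TF and belonged to arrangement A, with the highest signal in NACTF49 (1036), NACTF5 (442) and NACTF49 (406). Which genes or gene parts lie at these positions was not analysed here.

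Of the 98 lists that are not NAC, HB91 joined the most loci (44.02%), followed by OCL5A (40.1%), OCL1 (29%), MYBR81 (25.4%) and MYBR13 (22.9%), the last 2 MYB-related factors. These 5 lists held 114947 to 233664 peaks. A MYBR81 summit lay within 100 bp of the median NAC summit at 5.18% of the loci, and one of MYBR13 at 13.7%. In arrangement A, MYBR81 stood most often 226 and 325 bp from the main NRP1 summit. The 3 rarest were TCPTF40 (21317 peaks) and THX47 (5387 peaks), with 1 locus each, and EREB205, an AP2/ERF factor with 5 loci from 122882 peaks. At least 1 of HB91, OCL5A and OCL1 was present at 49.4% of the loci, against 9.01% of all loci under 30 TFs and 14.96% of those with 4 to 7 NAC lists. In arrangement A this share was 82.1%, in other recurring arrangements 15.1% and in none 24.96%. The high share of HB91, OCL5A and OCL1 thus went with arrangement A. Other HB lists did not follow: HB118 joined 7.44% of arrangement A and 7.50% of the loci in none, and HB96 0.037% and 3.49%. HB91 and OCL5A shared a base in 55.9% of their nearest pairs in arrangement A. Elsewhere nearly as many did, 47.03% in no recurring arrangement and 46.2% at loci of 4 to 7 NAC lists.

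To compare a locus with its surroundings, the share of loci with a summit within 100 bp of the median NAC summit was set against the mean share in windows of the same length 1 to 2 kb away. Averaged over the 98 lists it was 2.17% at the centre and 0.641% in the flanks, a difference of 1.53 ± 4.55 percentage points (mean and SD over lists), higher at the centre for 68 lists (two-sided sign-flip permutation test over lists with 100000 resamples, p = 1e-05, the smallest these can give). The median over lists was 0.25 points, well below the mean. In arrangement A the mean was 1.86 points, but the median was 0, with 47 lists higher and 48 lower (same test, p = 0.0206), whereas in no recurring arrangement the median was 0.72, with 75 higher and 23 lower (p = 1e-05). Loci of 4 to 7 NAC lists had 0.923 points (78 lists higher) and loci of 1 to 3 had 0.341 (77 lists higher). The larger mean at the loci of 8 or more came with fewer lists raised. Some lists lower at the centre of arrangement A had a repeated position within its flanks, among them BZIP78 (0% against 7.26%) and BZIP114 (0% against 6.03%). Others were near 0 in both places, such as EREB150 (0% against 0.0185%). The count of raised lists thus depends in part on the flanks chosen. Summits of other TFs took part in the chaining, so the loci were not placed wholly without them. The test treats lists as independent, but they were scored on the same loci and many belong to one family. Some, such as HB91 and OCL5A, often shared a base, which no p here allows for.

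The ratio of centre to flank was highest for MRP1 (35.5, 10.3% against 0.291%), OCL1 (32.8) and HB91 (28.96) among lists at 50 or more loci. At loci in no recurring arrangement these ratios were 2.22, 4.82 and 4.19. There the lists with the highest central share were of another family: BZIP52 stood at 13.6% against 2.07% in the flanks, BZIP75 at 12.7% against 1.43%, and all 13 BZIP lists were higher at the centre. In arrangement A BZIP52 stood at 2.81% against 2.24%. By family, all 7 MYBR lists and all 3 HB lists were higher at the centre over all 5790 loci, as were 10 of 13 BZIP lists, 12 of 20 WRKY lists and 7 of 17 EREB lists. WRKY92 had 1.09% at the centre and 4.06% in the flanks, where its position 1115 bp from NRP1 in arrangement A lies.

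**Figure D4:**
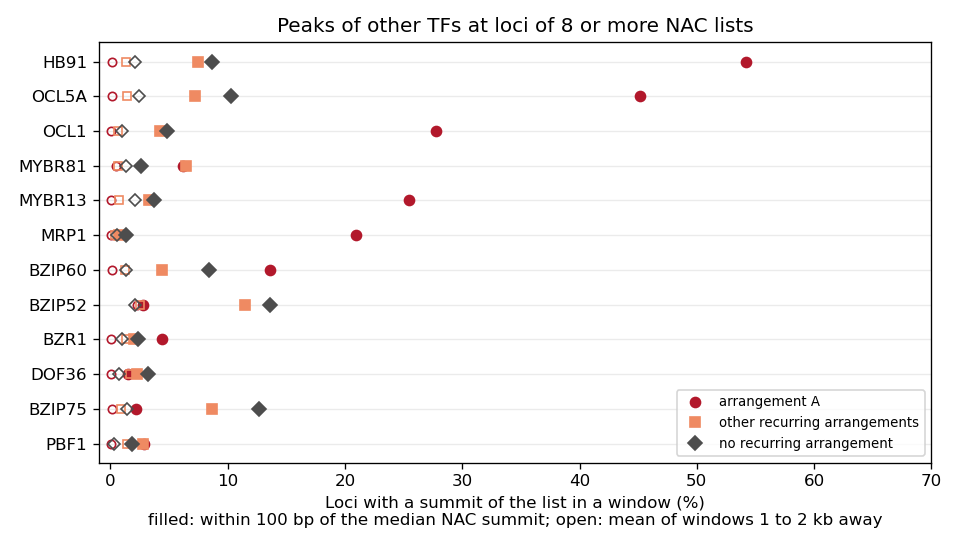
Share of loci with a summit of a list that is not NAC (x axis, percent) within 100 bp of the median NAC summit (filled) and in windows 1 to 2 kb away (open), for the 12 such lists at the most loci. HB91, OCL5A, OCL1, MYBR13 and MRP1 stood highest in arrangement A of the 3 classes, at 20.9% to 54.2%, and BZIP52 and BZIP75 were higher outside it.

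The loci were spread over all chromosomes, at 2.33 to 3.05 per Mb on chromosomes 1 to 10, with 74 on other sequences. Neighbours were a median of 239146 bp apart, and 22 pairs lay within 1 kb of each other. They lay toward the chromosome ends more than loci in general. The outer parts of the chromosomes, 25% of the length at each end, held 56.4% of them (95% Wilson interval 55.1 to 57.6) and 49.7% of all loci, with 49.8% of those with 4 to 7 NAC lists and 50.6% of those with 1 to 3. This share was above that of all loci on 10 of 10 chromosomes.

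The position differed between the arrangements. Arrangement A had 66.0% of its loci in the outer parts (64.2 to 67.7), above all loci on 10 of 10 chromosomes, with a range of 59.9% on chromosome 6 to 74.4% on chromosome 7. Arrangement C had 63.6% (57.7 to 69.1) and arrangement B 52.5% (47.5 to 57.4). Loci in no recurring arrangement had 44.9% (42.6 to 47.3), above all loci on 3 of 10 chromosomes. Without arrangement A the share over the remaining loci of 8 or more NAC lists was 47.9%, below that of all loci. The intervals cover counting error only.

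**Figure D5:**
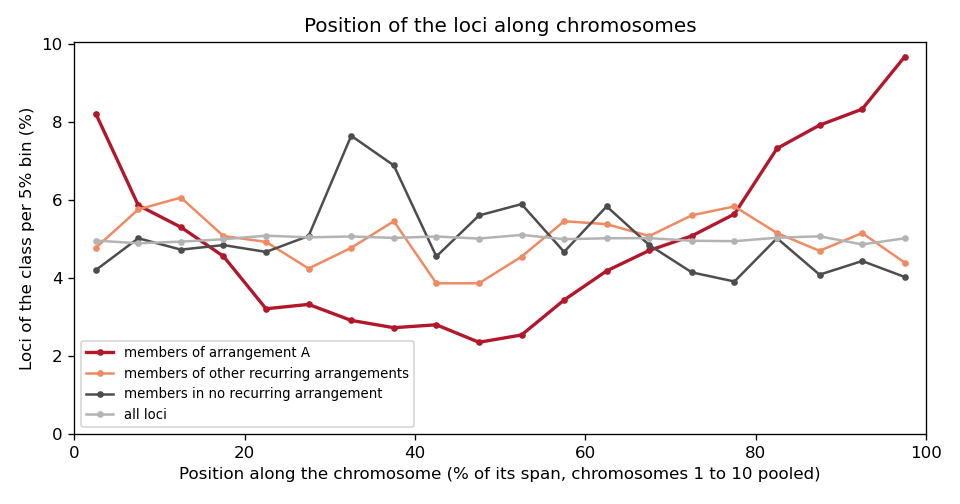
Share of the loci of each class per 5% bin of the chromosome span (y axis, percent), for chromosomes 1 to 10 pooled, each scaled from 0 to 100% of its span (x axis). Arrangement A was rare in the middle and common at both ends, with 66.0% in the outer parts, whereas all loci were spread evenly, with 49.7%.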

How the data were processed

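The members and the sets of lists were chosen with earlier results of these data known. Per the study's methods and labels, the authors trimmed reads (Trimmomatic 0.39), aligned them to B73 v4 (Bowtie2 2.4.1), removed duplicates and called peaks with GEM against a tag-only control. No mapping-quality filter is named in the sources used here, so reads from near-identical stretches may have been placed at any of them; this was not tested. The deposited signal is the caller's signal value per peak, with no scaling between libraries stated, and was used as a percentile within its list. The deposited −log10 p-value and −log10 q-value columns served in alternatives, and the authors' score column was not used. The peak lists give no sequencing depth per library; NAC lists held 11215 to 170007 peaks. Intervals are 201 bp and carry no strand. A peak's summit is the interval start plus 100. Arrangements were formed on NAC summits alone, as connected loci.

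Held-out strength and centre shares were tested by sign-flip permutation over lists (Python 3, numpy and scipy). The functions were tested on simulated data. Named loci were the 5 with the most NAC lists (ties by fewest other TFs) and the narrowest with 12 or more; named other lists were the 5 highest and 3 lowest shares and the 3 highest centre to flank ratios in 50 or more loci; named pairs were the 3 at either end of median distance (200 or more loci) and of strength agreement. BZIP, WRKY and MYB lists with distant summits, and the spacings and positions of arrangements, were chosen after their values were seen. Sequences and genes at the loci were not analysed here, as no B73 v4 genome or annotation was used. Alternatives were chaining within 50 or 200 bp, stricter q, other limits on NAC lists and TFs, chromosomes only, leaving out lists, other comparison loci, flanks, windows and lists and, chosen after seeing the data, leaving out arrangements and other grouping limits.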

Additional observations from a re-analysis of the deposited data

How the results depend on the processing

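The number of loci, 5790, depends on the rule: it was 3568 with chaining within 50 bp, 870 without the peaks below a −log10 q of 10, 10174 with 7 or more NAC lists, 3178 with 9 or more and 1709 without the merged lists NRP1 and NACTF2. Leaving out 1 list in turn with the limit kept at 8 gave 3298 to 5777. The count fell by over 1.5 times without NRP1 (3298), NACTF2 (3521), NACTF29 (3536), NACTF109 (3586), NACTF126 (3723) or NACTF65 (3799). The median NAC span, 234 bp, was 121 to 324 bp over 25 alternatives, with chaining within 50 and 200 bp at either end. The held-out difference in strength kept its direction and an exact p under 0.05 in 27 of 28 alternatives and turned to -2.17 points (p = 0.465) without the peaks below a −log10 q of 10; the cause was not tested. Without 1 list in turn it was 10.4 to 14.9 points. The centre difference of other lists stayed above 0 with p of 0.0276 or less in all 28, from 0.690 (stems of 5 or more TFs) to 2.00 points. The share in the outer 25% of chromosomes, 56.4%, was 58.7% with chaining within 50 bp, 64.1% with the stricter q, 54.3% and 59.0% with 7 or 9 or more NAC lists, 60.2% without the merged lists and 55.3% to 59.1% without 1 list in turn; in the outer 10% it was 24.97%. Chosen after seeing the data, leaving out arrangement A gave 47.9%, and keeping only loci in no recurring arrangement 44.9%. Members in a recurring arrangement numbered 3654 to 3888 under 3 other grouping limits, against 4043, and the loosest on shared distances (5 and 40%) merged arrangements A, B and C into a group of 3343. No paired analysis was possible because each TF has 1 list, and replicate numbers only count the TFs of a stem. With 1 list per TF and no depth in the lists, a missing peak cannot be told apart from weak sampling.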
